A study of Mus musculus with 6 samples.

Results

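The genes described here are a pair of ligands of the epidermal growth factor receptor (EGFR), EREG and TGFA, and 4 genes of nerve-directed signalling, ARTN, NGFR, SEMA3A and NRP1. All 6 were picked by name from the 4195 genes of the deposited table, with earlier results of these data known. RNA came from KYSE30, an established human cell line of esophageal squamous cell carcinoma labelled as wild type. One group of 3 libraries came from cells exposed to 100 uM acetylcholine (ACh) for 4 h, and the other group of 3 libraries from Control cells of the same time point. Both groups were grown in the same serum-containing medium, and the labels name no vehicle. The sample labels give mouse as the organism, but 4183 of the 4195 gene IDs in the table are human Ensembl IDs, and the genes are treated here as human. The values are normalised counts: in each library all 4157 to 4181 values above 0 were whole multiples, within 0.1 of a step, of one step for that library, as read counts divided by one factor would be. The table holds only genes with an unadjusted p under 0.05 in the authors' own comparison, so every gene in it had already been selected for a difference between the groups. The libraries summed to between 10519515 and 10681118 normalised counts in ACh and between 11097307 and 11468978 in Control over these genes, and the full sequencing depth is unknown. Counted in steps, the sums were 9420140 to 10036900 in ACh and 11258600 to 14453400 in Control, highest in Control replicate 3. Every Control library thus held more steps than every ACh library, and the part of this in the results was not tested. The labels do not say whether the replicates were separate cultures, and the p-values thus cover the spread among 6 libraries, part of which may be technical. Of 10 squamous epithelial markers 4 were in the table, TP63, SOX2, KRT15 and DSP, with summed values of 15440 to 15899 in ACh and 15543 to 15886 in Control, most of it from DSP. The 4 did not move one way: TP63 had a log2 fold change of 0.23 and SOX2 of -0.20, both called, and DSP had one of 0.08 that was not called. KRT15 was called at -0.17, with overlapping groups, but not without ACh replicate 2 (-0.08, limma adjusted p = 0.0762). Its call also ended with libraries scaled to equal totals over the listed genes (-0.09, limma adjusted p = 0.132), where TP63 and SOX2 kept theirs. The table holds 0 of 8 neuronal and 0 of 8 Schwann cell markers, so those genes have no value here. Of the fibroblast, leukocyte and endothelial markers 1 each was in the table, of 7, 7 and 6, with values of 133 to 147 in ACh and 146 to 193 in Control for COL1A1, 31.1 to 48.2 in ACh and 17.7 to 21.3 in Control for LAPTM5, and 818 to 970 in ACh and 1052 to 1081 in Control for EGFL7; their part in the results was not tested.

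Ligands of the EGF family are made as membrane-bound precursors and released by proteases, after which they bind EGFR or its relatives on the same or neighbouring cells and activate the RAS and ERK cascade. Acetylcholine can activate EGFR in epithelial cells through muscarinic receptors and ligand release. Carcinoma cells also make factors that attract or repel nerves. Artemin supports sensory and sympathetic neurons through the co-receptor GFRA3 and the kinase RET, and NGFR is the low-affinity neurotrophin receptor p75, which is also found on basal cells of squamous epithelium. SEMA3A is a secreted repellent of axons that binds the co-receptor NRP1, and NRP1 signals with A-type plexins.

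Of the 6 genes 4 rose in ACh (EREG, TGFA, SEMA3A and NRP1), 1 fell (ARTN), and NGFR did not pass. A gene was called when both the adjusted p of limma, computed over all 4195 genes, and the adjusted p in the authors' deposited table were under 0.05. Among all listed genes 63.8% were called, 28.8% as higher and 35.0% as lower in ACh. The higher genes were thus 45.1% of the calls as deposited, and 54.9% with libraries scaled to equal totals over the listed genes. The counts of called members are therefore read against a table in which most genes were called. The differences were small: the 4 genes that rose were 11.7% (TGFA) to 21.0% (NRP1) higher, and ARTN changed by -20.6%. The groups did not overlap for any of the 6 genes, as for 93.0% of the genes in the table. In bulk RNA a change in the share of cells that express a gene and a change in RNA per cell cannot be told apart.

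**Figure D1:**
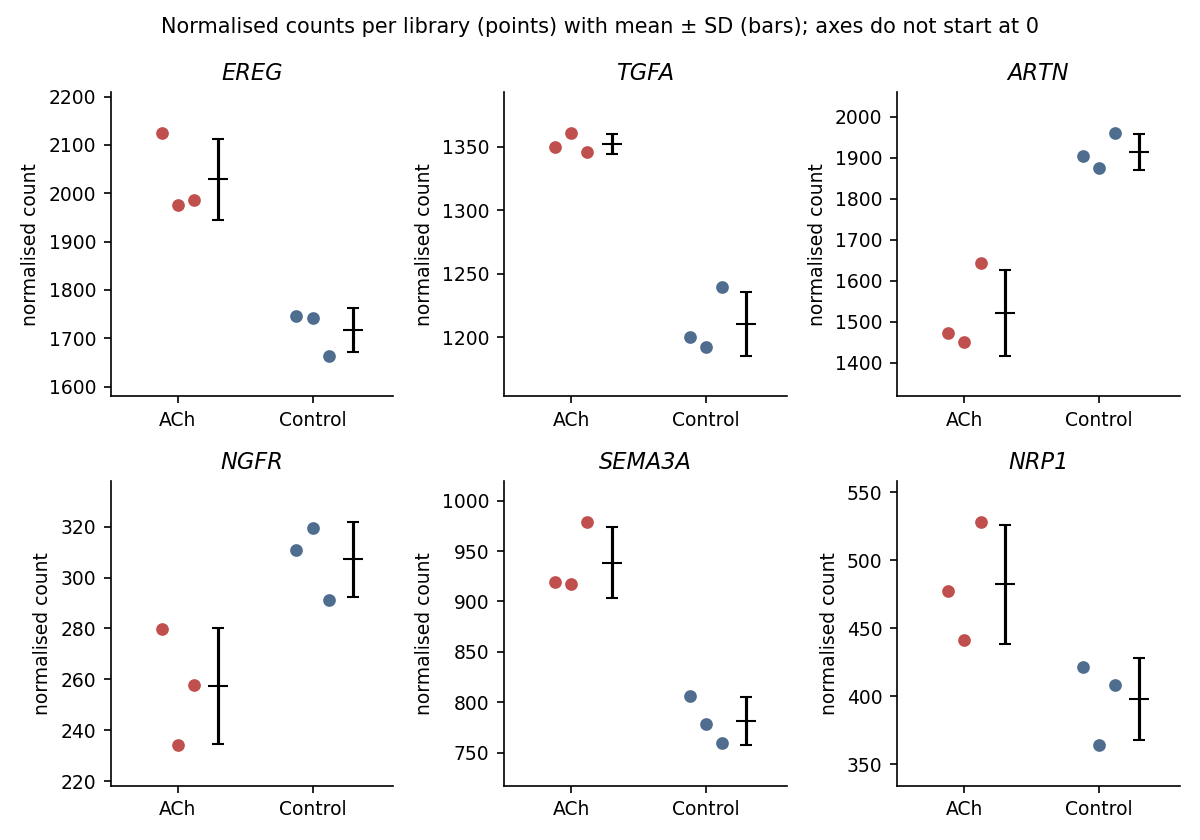
Normalised counts of the 6 genes in each library (points, vertical axes not starting at 0), with the mean and SD of each group of 3 beside them, ACh left and Control right. EREG, TGFA, SEMA3A and NRP1 stand higher in ACh and ARTN and NGFR lower, and the smallest gaps between the groups are those of NGFR (11.1) and NRP1 (19.8).

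EREG encodes epiregulin, a ligand of EGFR and ERBB4. The gene (ENSG00000124882) lies on chromosome 4 from 74365143 to 74388751 on the plus strand, in coordinates as the file gives them, since the human build is not given in the sources used here. EREG had normalised counts of 2125, 1975 and 1986 in ACh, against 1746, 1741 and 1664 in Control. The lowest ACh library stood 229 above the highest Control library. EREG averaged 2029 ± 83.6 in ACh and 1717 ± 46.2 in Control (SD, n = 3 each) and rose by 0.24 ± 0.04 (SE) on the log2 scale, with a limma adjusted p of 7.33e-05. The 95% interval of the change ran from 11.4% to 25.3% higher.

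TGFA encodes transforming growth factor alpha, another ligand of EGFR, on chromosome 2 from 70447280 to 70554193 on the minus strand (ENSG00000163235). Its normalised counts were 1350, 1361 and 1346 in ACh, against 1200, 1192 and 1239 in Control. The ACh libraries lay close together, with a coefficient of variation of 0.585% in ACh and 2.08% in Control, and all 3 were higher than every Control library. TGFA averaged 1352 ± 7.91 in ACh and 1211 ± 25.1 in Control (SD, n = 3 each) and rose by 0.16 ± 0.04 (SE) on the log2 scale, with a limma adjusted p of 0.00265. This was the smallest difference of the 6 genes on the log2 scale, with an interval from 4.96% to 18.9% higher.

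ARTN, the gene for artemin, lies on chromosome 1 from 43933320 to 43937241 on the plus strand (ENSG00000117407). It had 1473, 1449 and 1642 normalised counts in ACh, against 1905, 1875 and 1962 in Control. All ACh libraries were lower than all Control libraries, and ACh replicate 3 was the nearest to them. ARTN averaged 1522 ± 105 in ACh and 1914 ± 44.0 in Control (SD, n = 3 each); its log2 fold change was -0.33 ± 0.05 (SE), with a limma adjusted p of 1.08e-05. It was the largest difference of the 6 genes, with an interval from -25.7% to -15.2%. By absolute log2 fold change ARTN ranked 621 among the 4195 genes, ahead of NRP1 at 1097 and TGFA at 3085.

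NGFR lies on chromosome 17 from 49495293 to 49515017 on the plus strand (ENSG00000064300). Its normalised counts were 280, 234 and 258 in ACh, against 311, 320 and 291 in Control. The groups did not overlap, but ACh replicate 1 and Control replicate 3 were only 11.1 apart. NGFR averaged 257 ± 22.8 in ACh and 307 ± 14.7 in Control (SD, n = 3 each), and its log2 fold change was -0.26 ± 0.09 (SE). By limma alone it passed (adjusted p = 0.0122), as did 99.6% of all genes, but the authors' deposited table gave it an adjusted p of 0.121, and NGFR was not called. It missed limma's threshold with libraries scaled to equal totals (-0.18, adjusted p = 0.0835) and without ACh replicate 2 (-0.19, adjusted p = 0.0679). NGFR was the lowest of the 6 genes in raw normalised count, above 12.8% of the genes in the table by mean value.

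SEMA3A encodes semaphorin 3A and lies on chromosome 7 from 83955777 to 84492724 on the minus strand (ENSG00000075213). It had 919, 918 and 979 normalised counts in ACh, against 806, 778 and 759 in Control. Every ACh library was higher than every Control library, by at least 111. SEMA3A averaged 938 ± 35.0 in ACh and 781 ± 23.7 in Control (SD, n = 3 each) and rose by 0.26 ± 0.05 (SE) on the log2 scale, with a limma adjusted p of 0.000345.

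NRP1, the gene for the SEMA3A co-receptor neuropilin 1, lies on chromosome 10 from 33177492 to 33336262 on the minus strand (ENSG00000099250). Its normalised counts were 477, 441 and 528 in ACh, against 421, 364 and 408 in Control. ACh replicate 2 and Control replicate 1 were the nearest pair across the groups, 19.8 apart. NRP1 averaged 482 in ACh, with a coefficient of variation of 9.06%, and 398 in Control, with one of 7.54% (n = 3 each), and rose by 0.27 ± 0.08 (SE) on the log2 scale, with a limma adjusted p of 0.00465. These coefficients were the highest of the 6 genes in both groups, and the interval of the change ran from 7.58% to 36.1% higher.

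Per kilobase of the gene length given in the table, the order of levels was ARTN, EREG, TGFA, SEMA3A, NGFR and NRP1 in both groups. On this scale ARTN averaged 572 ± 39.6 in ACh and 720 ± 16.6 in Control normalised counts per kb (SD, n = 3 each). EREG stood at 355 ± 14.6 in ACh and 300 ± 8.08 in Control, and TGFA at 272 ± 1.59 in ACh and 244 ± 5.06 in Control. SEMA3A stood at 100 ± 3.74 in ACh and 83.4 ± 2.53 in Control, NGFR at 62.0 ± 5.50 in ACh and 74.0 ± 3.54 in Control, and NRP1 at 41.9 ± 3.79 in ACh and 34.5 ± 2.60 in Control. The libraries of neighbouring genes in this order did not overlap within either group. The files do not say which transcripts the lengths cover, and the order between genes rests on them.

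Ratios of a pair of genes within one library do not depend on how the library was scaled. The per-kilobase ratio of ARTN to EREG was 1.49, 1.58 and 1.78 in ACh, against 2.35, 2.32 and 2.54 in Control. The ratio of ARTN to TGFA was 2.04, 1.99 and 2.28 in ACh, against 2.96, 2.94 and 2.96 in Control. Both ratios were lower in every ACh library than in every Control library. This follows from the single genes, since ARTN was lower and EREG and TGFA were higher in every ACh library. Within the semaphorin pair the ratio of SEMA3A to NRP1 averaged 2.40 ± 0.142 in ACh and 2.42 ± 0.181 in Control (SD, n = 3 each), and within the EGFR ligands that of EREG to TGFA averaged 1.30 ± 0.0565 in ACh and 1.23 ± 0.0577 in Control, with overlapping libraries in each case. The ratio of ARTN to NGFR, the 2 genes with lower values in ACh, also overlapped, at 9.28 ± 0.926 in ACh and 9.75 ± 0.701 in Control (SD, n = 3 each). These ratios are given as a description and were not tested. The trend with GC content described below does not cancel in them where the genes of a pair differ in it. With that trend removed, the log2 fold changes were -0.08 for ARTN, 0.01 for EREG and 0.19 for TGFA.

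Base composition moved with direction across the table. Over the 3676 genes with a value, the log2 fold change and GC content had a Spearman's rho of -0.76 across genes, which share the same 6 libraries and are not independent. Genes with little change are missing from the table, where the smallest log2 fold change was 0.05 in absolute size. The rho and the GC trend thus describe listed genes only, and both may be weaker over all genes measured. GC content was taken from the mouse gene with that symbol, since no human sequence was used here. The mouse GC content was 39.2% for EREG and 40.8% for SEMA3A, both low in the table (percentiles 3.78 and 9.03). It was 60.8% for ARTN and 58.6% for NGFR (percentiles 94.5 and 85.4). TGFA and NRP1 were near the middle, at 50.9% and 50.0%, against a median of 50.9% over the genes with a value.

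Once the GC trend was taken out of each library, EREG had a log2 fold change of 0.01 (limma adjusted p = 0.916) and SEMA3A of 0.05 (adjusted p = 0.631), and neither was called. ARTN then stood at -0.08 (limma adjusted p = 0.248) and NGFR at -0.02 (adjusted p = 0.92), also not called. TGFA stood at 0.19 (limma adjusted p = 0.00178) and NRP1 at 0.26 (adjusted p = 0.0227), and both kept their calls. After this step 10.5% of the genes were called, 5.03% as higher. The authors' adjusted p was held fixed for these calls, also where the sign had turned. The part of the difference that the trend took up was 0.23 for EREG, 0.22 for SEMA3A, -0.25 for ARTN and -0.24 for NGFR, against -0.03 for TGFA and 0.01 for NRP1. All 6 genes kept their direction. The middle of the GC range is also where calls were most often kept. Of the genes with a mouse GC content between 49% and 52% 43.8% were called after this step, against 4.95% of those at or below 42% and 9.08% of those at or above 58%. Of 183 genes in the middle range that were called as deposited, 138 (75.4%) kept call and sign, against 12.8% of the 2460 called genes with any GC value. The trend crosses 0 there, while the smallest log2 fold change in the table was 0.05 in absolute size. A listed gene near the crossing thus lies off the trend. The part of selection in the calls kept there, those of TGFA and NRP1 among them, was not tested. At the ends of the GC range the trend was likewise fitted without genes of little change. Its removal may thus take too much from a listed gene there, which was not tested. The part of base composition in these differences was not tested further.

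**Figure D2:**
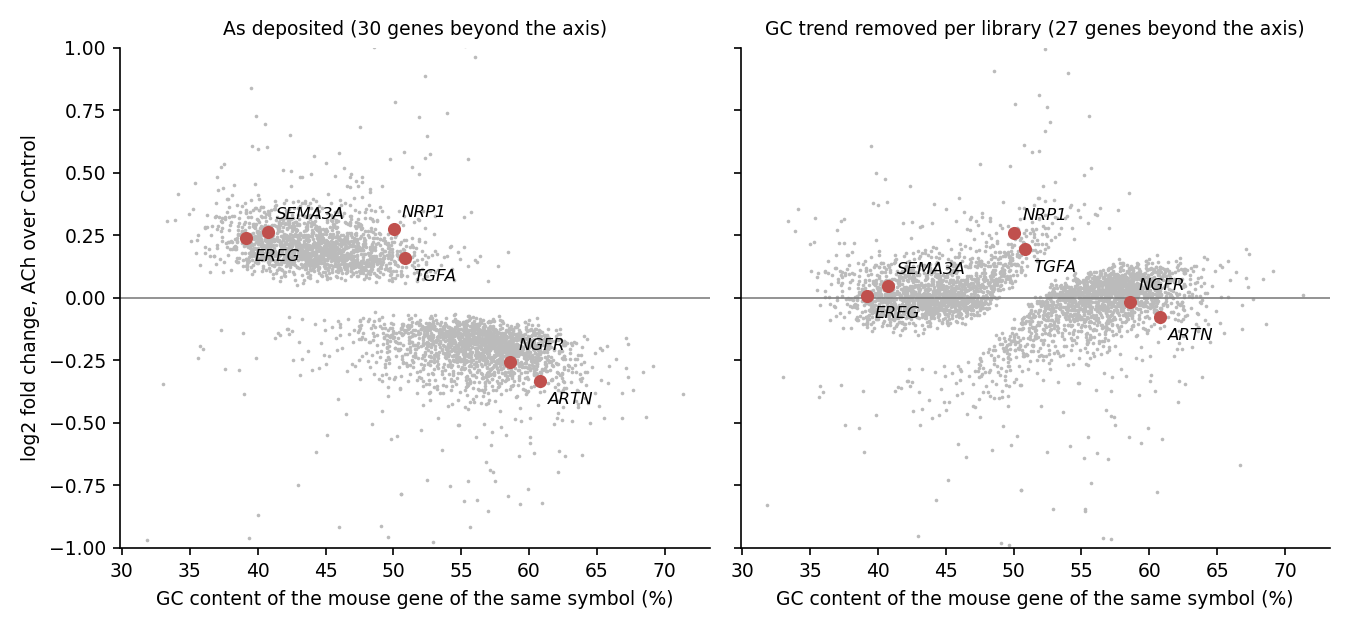
Log2 fold change of each listed gene (grey points) against mouse GC content, as deposited (left) and with the GC trend removed per library (right), with the 6 genes in red. EREG and SEMA3A lie in the AT-rich cloud of higher genes and ARTN and NGFR in the GC-rich cloud of lower genes, and the 4 move close to 0 on the right, while TGFA (0.19) and NRP1 (0.26) do not.

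**Figure D3:**
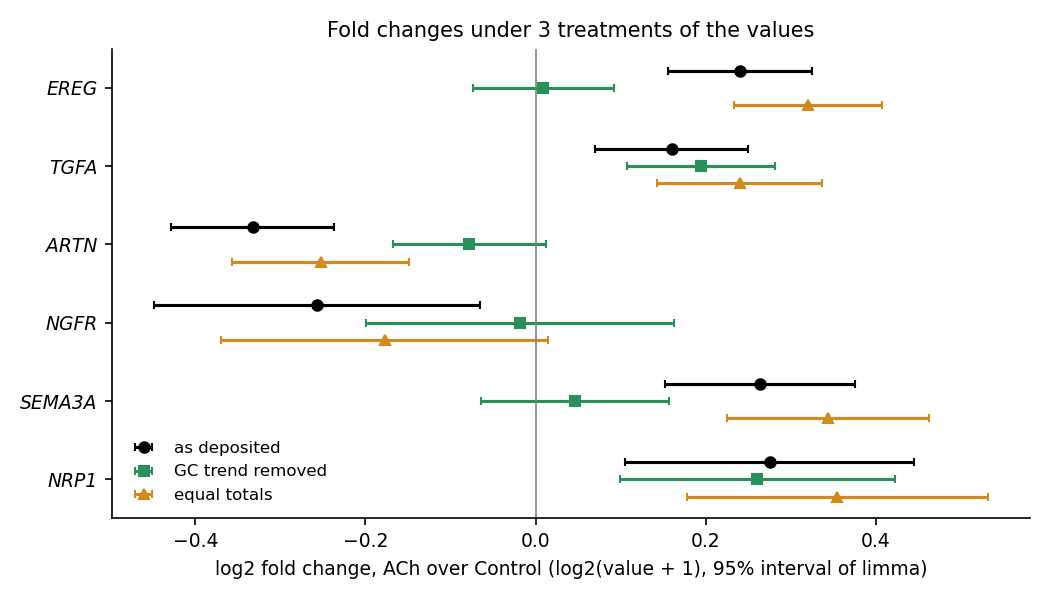
Log2 fold changes of the 6 genes with the 95% interval of limma, as deposited (circles), with the GC trend removed (squares) and with libraries scaled to equal totals over the listed genes (triangles). The direction is the same in all 3 versions for each gene, and with the trend removed the intervals of EREG, ARTN, NGFR and SEMA3A include 0, as does that of NGFR with equal totals (-0.37 to 0.01).

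The lists of related genes that follow were chosen with earlier results of these data known. Of 160 genes in 11 lists 36 were in the table, and of these 11 rose, 13 fell and 12 did not pass, against 63.8% called of all listed genes. With libraries scaled to equal totals 16 of the 24 calls were left, 11 higher and 5 lower, and all 8 lost calls were falls. This scaling raised log2 fold changes by a median of 0.08, so it made falls smaller and rises larger in every list. Its totals cover only genes selected for a difference, so which scaling is nearer the truth cannot be told. Their other members have no value here, which does not show that they were unchanged or not expressed. Removal of the GC trend left 4 of the 24 calls with the same sign, TGFA, NRP1, FOSL1 and PTPN11. Among all called genes with a GC value 12.8% kept call and sign. TGFA, NRP1 and PTPN11 lie in the middle GC range, where 75.4% did.

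Among the EGFR ligands EREG and TGFA were the 2 of 7 in the table, and the other 5 (EGF, HBEGF, AREG, BTC and EPGN) were not. Of the 8 EGFR family receptors and shedding factors 4 were in the table, 1 higher, 1 lower and 2 not past the threshold, with a median log2 fold change of -0.03 against -0.10 over all genes. EGFR itself had 72060 ± 2102 normalised counts in ACh and 68822 ± 1177 in Control (SD, n = 3 each), with overlapping groups and a log2 fold change of 0.07 that was not called (limma adjusted p = 0.201); with equal totals it stood at 0.15 and passed limma (adjusted p = 0.00181). ERBB2, the partner receptor without a ligand of its own, had a log2 fold change of -0.12 and was not called, and stood at -0.04 with equal totals. ADAM10, a membrane protease that releases EGF family ligands, rose by 0.18 on the log2 scale, and RHBDF1, which encodes the iRhom that helps the protease ADAM17 mature, fell by 0.19, a call that ended with libraries scaled to equal totals (-0.11, limma adjusted p = 0.0584). All 4 had the opposite sign after removal of the GC trend, at -0.12, 0.10, -0.03 and 0.06 for EGFR, ERBB2, ADAM10 and RHBDF1, and none was called. EGFR and ERBB2 could not be called in any version, since their authors' adjusted p was 0.0624 and 0.076. With a term for the replicate number added, these 2 passed limma in the turned direction (adjusted p = 0.0236 and 0.0246), and ADAM10 and RHBDF1 did not.

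Downstream of the receptor, 5 of 14 adaptors and brakes were in the table, of which 3 rose and 2 did not pass. SOS2, an exchange factor that activates RAS, rose by 0.23, and SOCS5, an inhibitor of EGFR signalling, rose by 0.23 on the log2 scale. Neither was called with the GC trend removed, at 0.04 for SOS2 (limma adjusted p = 0.735) and 0.09 for SOCS5 (adjusted p = 0.341). As deposited, the list's median was 0.14. Of 18 ERK feedback and target genes 3 were in the table, with a median of 0.18. HMGA2, a chromatin architecture gene, had 6723 ± 340 normalised counts in ACh and 5678 ± 213 in Control (SD, n = 3 each) and rose by 0.24 on the log2 scale; with the GC trend removed it stood at 0.06 (limma adjusted p = 0.241) and was not called. FOSL1, which encodes the AP-1 protein FRA-1, had 1901, 2024 and 1739 in ACh, against 1648, 1774 and 1565 in Control. The groups of FOSL1 overlapped, and it rose by 0.18 on the log2 scale (limma adjusted p = 0.00357). DUSP6, the ERK phosphatase induced by ERK itself, had a log2 fold change of 0.14 and was not called (the authors' deposited table gives 0.122 as its adjusted p).

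In the nerve-directed lists ARTN was the 1 gene of the 10 in the GDNF family in the table, so its co-receptor GFRA3 and RET have no value here. Of 17 neurotrophins and receptors NGFR and RTN4R were in the table, and neither was called. RTN4R, the Nogo receptor that can pair with NGFR, had 183, 172 and 198 normalised counts in ACh, against 263, 239 and 210 in Control, a log2 fold change of -0.36; the authors' deposited table gives an adjusted p of 0.0539. All its ACh libraries were lower than its Control libraries. It stood at -0.07 after removal of the GC trend.

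Of 20 semaphorins 8 were in the table, of which 2 rose, 5 fell and 1 did not pass. With equal totals 5 of the 7 calls were left, and both lost ones, SEMA3F and SEMA4C, were falls. Beside SEMA3A, the secreted SEMA3D rose, with 1313 ± 16.5 normalised counts in ACh and 1117 ± 27.5 in Control (SD, n = 3 each) and a log2 fold change of 0.23. The largest falls were in the membrane-bound SEMA6B and SEMA4F. SEMA6B had 468 ± 10.1 normalised counts in ACh and 623 ± 18.3 in Control (SD, n = 3 each) and a log2 fold change of -0.41, and SEMA4F had one of -0.32. The 3 semaphorins with higher values in ACh had mouse GC contents of 39.2% to 42.7%, and the 5 with lower values 56.5% to 63.5%, without overlap. Once the GC trend was removed 0 of the 8 were called, against 10.5% of all genes with a GC value. That share was 4.95% at or below 42% mouse GC and 9.08% at or above 58%. Of the 8 semaphorins 0 passed limma alone, which 16.4% of all genes with a GC value did, and 0 had an unadjusted p under 0.05. SEMA3D then stood at 0.00, SEMA6B at -0.11 and SEMA4F at -0.11.

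Of 20 neuropilins, plexins and effectors 7 were in the table, and NRP1 was the 1 with a higher value. Of the other 6, 3 fell and 3 did not pass, and with equal totals 2 of the 4 calls in this list were left, NRP1 and GIPC1. GIPC1, which binds the cytoplasmic tail of NRP1, had 5509 ± 52.5 normalised counts in ACh and 6359 ± 173 in Control (SD, n = 3 each) and fell by 0.21 on the log2 scale, and DPYSL5, a collapsin response mediator, had a log2 fold change of -0.23 that was not called and stood at -0.15 without ACh replicate 2. GIPC1 had the opposite sign, at 0.05, after removal of the GC trend. The VEGF ligands and receptors, which also use NRP1, had 0 of 8 genes in the table. Among 16 netrins, slits and receptors SLIT3, an axon repellent, was in the table, with 42.9, 39.6 and 46.1 normalised counts in ACh, against 67.1, 64.9 and 72.2 in Control. The authors' deposited table lists an adjusted p of exactly 1 for SLIT3, as for 234 genes in all, and it could not be called. Of 22 ephrins and Eph receptors 3 were in the table and all 3 fell, EPHB2 by 0.15, EPHA2 by 0.14 and EPHB4 by 0.11 on the log2 scale. With libraries scaled to equal totals none of the 3 was called. With the GC trend removed they stood at 0.02, 0.07 and 0.13 in the opposite direction. EPHB4 then passed limma as higher (adjusted p = 0.003), but the authors' adjusted p for it belongs to its fall as deposited.

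**Figure D4:**
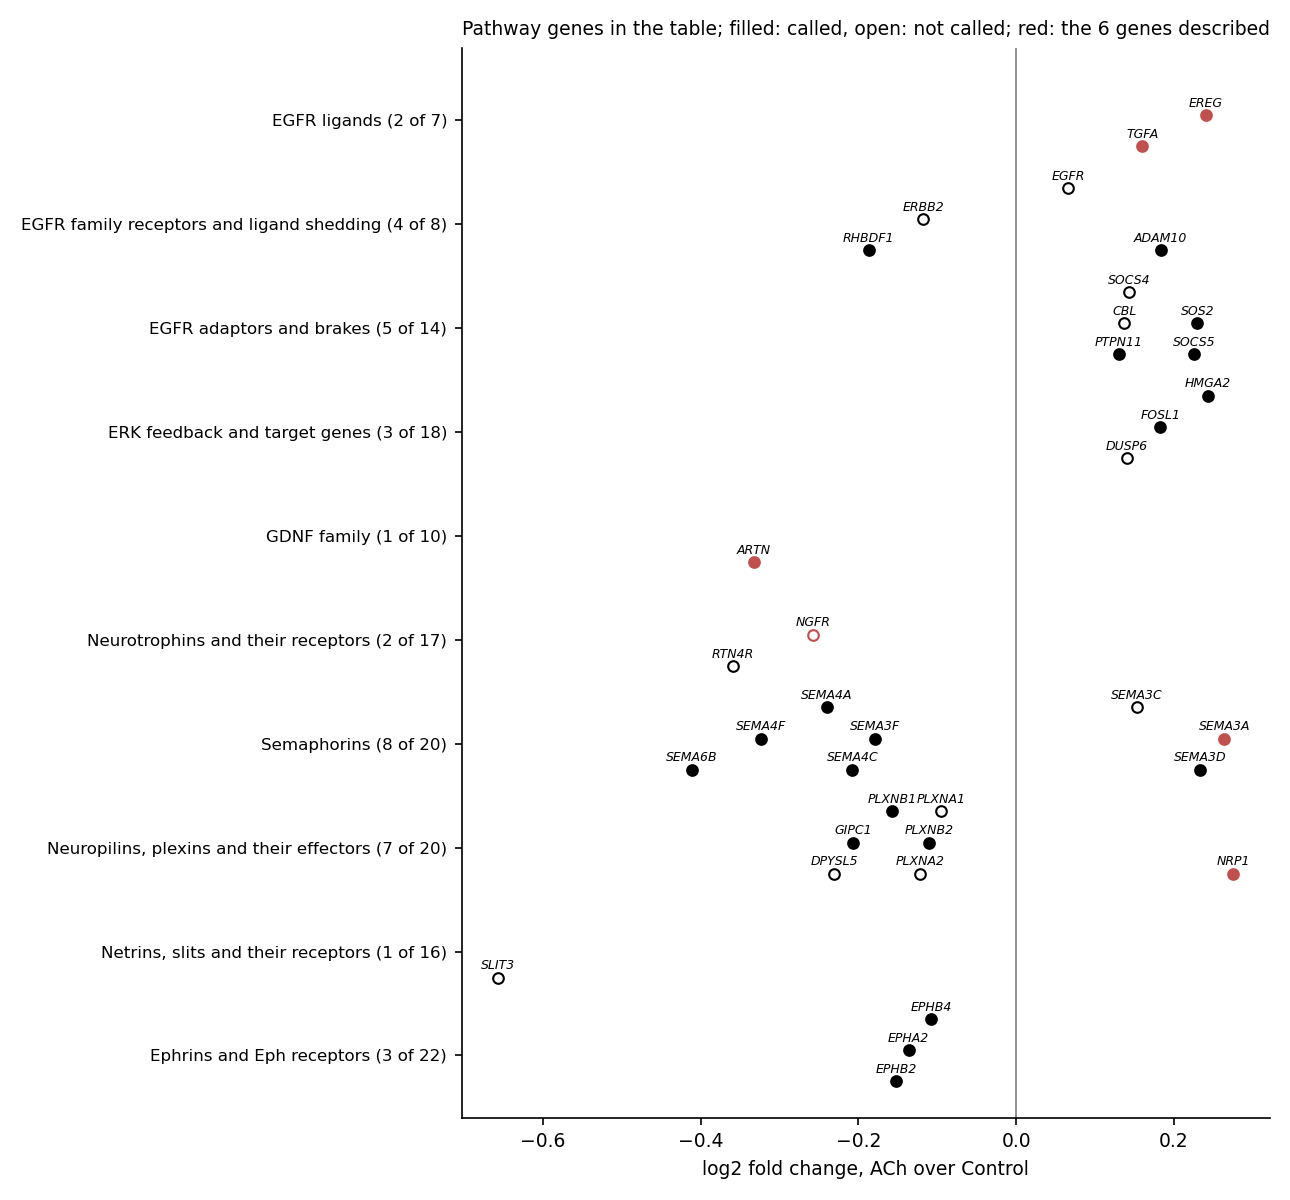
Log2 fold change of every listed gene in the table, by list, with the number in the table of the number in the list; filled points were called, open points were not, and the 6 genes described are in red. The EGFR adaptors, ERK targets and EGFR ligands lie right of 0, the Eph receptors and neurotrophin receptors left of it, and the semaphorins on both sides, as deposited; with the GC trend removed 16 of the 36 genes had the opposite sign.

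The genes whose profiles over the 6 libraries were most like each member were sought among 3886 genes with a mean of at least 100, by the root mean square distance between profiles of log2(value + 1) after subtracting each gene's mean. For EREG these were NEDD1, a centrosome gene, and CNIH1, at distances of 0.0179 and 0.0208. For TGFA they were ROCK1, a protein kinase gene, and PEX13, a peroxisome gene, at 0.00985 and 0.0109. ARTN was nearest to TSSC4, at 0.0211. NGFR was nearest to DDAH2 and SP6 at 0.0318 and 0.0328, and SEMA3A to LIFR, the receptor gene for leukemia inhibitory factor, and RAB27A at 0.0131 and 0.0149. NRP1 was farthest from its neighbours SC5D and KLHL24, at 0.0322 and 0.0372. Within a distance of 0.05 there were 655 genes for TGFA, 224 for EREG and 146 for SEMA3A, against 38 for ARTN, 12 for NGFR and 6 for NRP1. With all genes selected for a difference between the same groups, such closeness is a description of 6 libraries.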

How the data were processed

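The deposited values are a signal, taken as read counts that the authors divided by one factor per library: in each library all values above 0 (4157 to 4181) were whole multiples, within 0.1 of a step, of one step. How the factor was set is not given in the sources used here. Per the file headers the table also carries the authors' log2 fold changes, p-values and gene lengths. Bowtie 0.12.2 and the builds mm8 and mm10, both of mouse, are named in the submitters' processing notes. Overlapping genes may share reads, since a human build, a counter or the use of strand is not given in the sources used here. All 4195 p-values were under 0.05, and 234 adjusted p-values of exactly 1 were treated as not adjusted. The authors' adjusted p-values imply 11193 tests.

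Groups came from the sample titles. After taking log2(value + 1), limma-trend (limma 3.58.1, R 4.3.3) was fitted and tested two-sided, with group as the only term, no filter, and Benjamini-Hochberg adjustment at 0.05 over all 4195 genes; a call also needed the authors' adjusted p under 0.05. Because the table was selected on the same libraries, limma is no independent support for the authors' call. The added 1 understates the change of low genes. GC content was that of the longest coding transcript in GENCODE M21 (mouse) of the gene with the same symbol, found for 3676 genes (87.6%) and for all 6 members, and its trend was removed per library by local regression with a span of 0.3. The members and lists were chosen with earlier results of these data known. From each list all genes in the table were named where there were at most 4, otherwise the 2 largest changes in each direction; PTPN11, PLXNB2, PLXNA1, SEMA3F and SEMA4C were named after their values were seen. Of the 2 genes most like each member in profile, the second for ARTN is not reported here. Tables and figures were made with Matplotlib 3.10.9, NumPy 2.4.6, SciPy 1.17.1 and pandas 2.3.3 under Python 3.11.15.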

Additional observations from a re-analysis of the deposited data

How the results depend on the processing

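The directions of the 6 genes were the same under all 14 alternatives that gave a value. With the GC trend removed, without and with the replicate block, EREG (0.00888), ARTN (-0.0782) and SEMA3A (0.0459) lost their calls, the count of called genes in the table was 386 and 516 against 2677, and the count over the pathway lists was 6 and 7 against 24. Genes whose sign turned are included in these counts, since the authors' adjusted p was held fixed. By limma alone 4178 genes passed, and NGFR with them (-0.26). Leaving out each library in turn gave 2647 to 2668 called genes and 24 pathway calls each time, with no change of call among the 6. The log2 fold changes were 0.206 to 0.259 for EREG, 0.149 to 0.177 for TGFA, -0.389 to -0.299 for ARTN, -0.32 to -0.192 for NGFR, 0.207 to 0.337 for NRP1 and 0.233 to 0.287 for SEMA3A. The authors' adjusted p was held fixed in these fits. It alone passed 2678 genes and so set nearly all calls, which makes these counts no test of stability. NGFR could not be called in any of these fits, and its limma adjusted p was 0.0679 without ACh replicate 2. Equal totals moved the median of all genes by 0.08 and gave 2197 calls, 16 of them over the pathway lists, and a minimum at the lower quartile of the means removed NGFR and NRP1. Same-numbered replicates correlated in their deviations from the group means by 0.0878, 0.104 and 0.193 over genes with a mean of at least 100. The numbers were thus not taken to pair the samples, although every sample correlated best with its own number. The replicate block alone gave 2677 calls and changed none of the 6. With the authors' adjusted p held fixed, that count cannot tell whether pairing matters. The limma adjusted p of each of the 6 was lower with the block.

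With the GC trend removed, and equally with the block, 10 other named genes turned: ADAM10 (-0.0261), EGFR (-0.123), ERBB2 (0.101), RHBDF1 (0.0625), GIPC1 (0.0456), EPHB4 (0.129), EPHA2 (0.0732), EPHB2 (0.0193), PLXNB2 (0.109) and PLXNA1 (0.123). The trend was fitted to listed genes only, so how far a turned sign rests on that fit is unknown. The cause was not tested. The planned count tests were not run, because the Control libraries held 81 to 93 values at or under 20 steps, fewer than the 100 required to take the steps as reads. Without the full table, depth and the genes that did not differ are unknown.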

Other observations

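In a few genes of the same pathways the difference was larger, or pointed the other way, with the GC trend removed; these were picked after their values were seen. FOSL1 stood at 0.42 on the log2 scale (limma adjusted p = 1.92e-06), against 0.18 as deposited, at a mouse GC content of 58.5%. PTPN11, which encodes the phosphatase SHP2 that carries EGFR signals to RAS, stood at 0.22 (limma adjusted p = 2.55e-05), against 0.13 as deposited, where it was also called, with 4017 ± 44.3 normalised counts in ACh and 3671 ± 96.0 in Control (SD, n = 3 each). Its mouse GC content was 51.8%, within the range of 49% to 52% where calls were most often kept. EPHB4 stood at 0.13 (limma adjusted p = 0.003) and the plexin gene PLXNB2 at 0.11 (adjusted p = 0.0119), and both were called as lower as deposited. With libraries scaled to equal totals neither fall was called, at -0.028 for EPHB4 and -0.031 for PLXNB2. PLXNA1, a plexin that signals with NRP1, stood at 0.12 (limma adjusted p = 0.0135), against -0.09 as deposited, and was called in neither version because its adjusted p in the authors' deposited table was 0.0944. The GC content is that of mouse genes, and the trend was fitted to listed genes only. What base composition contributes to these values was not tested.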
